A study of Mus musculus with 2 samples.

Results

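The SLAM receptor cluster is a group of 6 genes, Ly9, Slamf7, Cd48, Slamf1, Cd84 and Slamf6, that lie side by side on mouse chromosome 1 (mm10, chr1:171588624-171953170) out of 53843 annotated genes on the autosomes and the X chromosome. The members were chosen by name and position, by a rule that uses no measured value but was written with earlier results of these data known. Chromatin accessibility at these genes was compared between 1 single-cell ATAC-seq library of Young hematopoietic stem cells (HSCs), from 10-week-old mice, and 1 library of Aged HSCs, from 20-month-old mice. In scATAC-seq the transposase Tn5 cuts open chromatin in each nucleus, and every fragment between a pair of cuts keeps the barcode of its cell. Both ages were C57BL/6 bone marrow sorted with the same gate, as Sca-1+, c-kit+ and CD150+ cells that were also IL-7-, Lin-, CD34-, CD48- and Flt3-. The study describes female mice, and neither the labels nor the methods say how many mice gave each library or tie a cell to a mouse.

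SLAM family members are cell surface glycoproteins of the immunoglobulin superfamily, found mainly on blood cells. Most of them, including Slamf1 (CD150), Ly9 (CD229), Cd84, Slamf6 (Ly108) and Slamf7 (CRACC), bind a copy of themselves on the neighbouring cell, and their cytoplasmic tails recruit adaptors of the SAP family. Cd48 differs, being held in the membrane by a lipid anchor and serving as a ligand of the receptor Cd244a (2B4). Expression of CD150 together with loss of CD48 is a standard surface phenotype of mouse HSCs, and both proteins were part of the gate used here at both ages. Accessibility of Slamf1 and Cd48 was therefore measured only in cells selected for these proteins, and a difference between ages in where cells fell within the gate cannot be told apart from a difference at equal protein level.

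With 1 library per age, no test between ages was possible. All intervals given are 95% intervals that cover counting error only, not the spread between animals. They are exact, except those for differences in the share of cells. After barcodes called as cells were limited to 3000 to 20000 in-peak fragments, 4887 Young and 3405 Aged cells were used, with medians of 9890 and 11020 unique fragments per cell. A total of 26 barcode sequences occurred in both sets of cells. The cells held 34649111 Young and 26155596 Aged fragments in peaks, and levels are given as fragments per 1000000 of these in-peak fragments (FPM). Fragments shorter than 150 bp made up 60.3% of Young and 55.5% of Aged fragments, and the part of this difference in the results was not tested beyond the values for short fragments given with them. In the labelled HSCs, TSS windows of 8 HSC markers summed to 186 FPM in Young and 183 in Aged, and ranged from 0.520 at Mecom to 51.3 at Kit in Young. B cell markers (5 genes) summed to 21.4 and 22.5 FPM, T cell markers (5 genes) to 18.8 and 16.7, NK cell markers (3 genes) to 20.1 and 24.1, granulocyte and monocyte markers (5 genes) to 13.0 and 11.9, erythroid markers (4 genes) to 47.1 and 45.1, and megakaryocyte markers (4 genes) to 139 and 126.5. Most of the T cell sum came from Tcf7, at 14.6 FPM in Young and 14.8 in Aged, and the other 4 T cell genes were lower in Aged, with Cd4 at 2.11 and 0.726 FPM, Cd3g at 0.837 and 0.344, Cd3e at 0.837 and 0.573 and Cd8a at 0.433 and 0.268. The intervals of the ratio lay below 0 for Cd4 and Cd3g and included 0 for Cd3e and Cd8a. None of the markers was at 0 in either library, and the part of other cells in the results was not tested.

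The cluster as a whole was slightly more accessible in Aged HSCs. From its first to its last base it held 10022 Young and 8202 Aged fragments, or 289 and 314 FPM, a log2 ratio of Aged over Young of 0.12 (95% interval 0.07 to 0.16). The 500 kb before the cluster had a ratio of -0.13 and the 500 kb after it a ratio of -0.09, so the cluster and its flanks differed in sign. Most of the excess lay in Slamf1. Without the Slamf1 gene body the ratio of the cluster was 0.05 (0.0061 to 0.10), whereas without any one of the other members it was between 0.10 and 0.14.

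**Figure D1:**
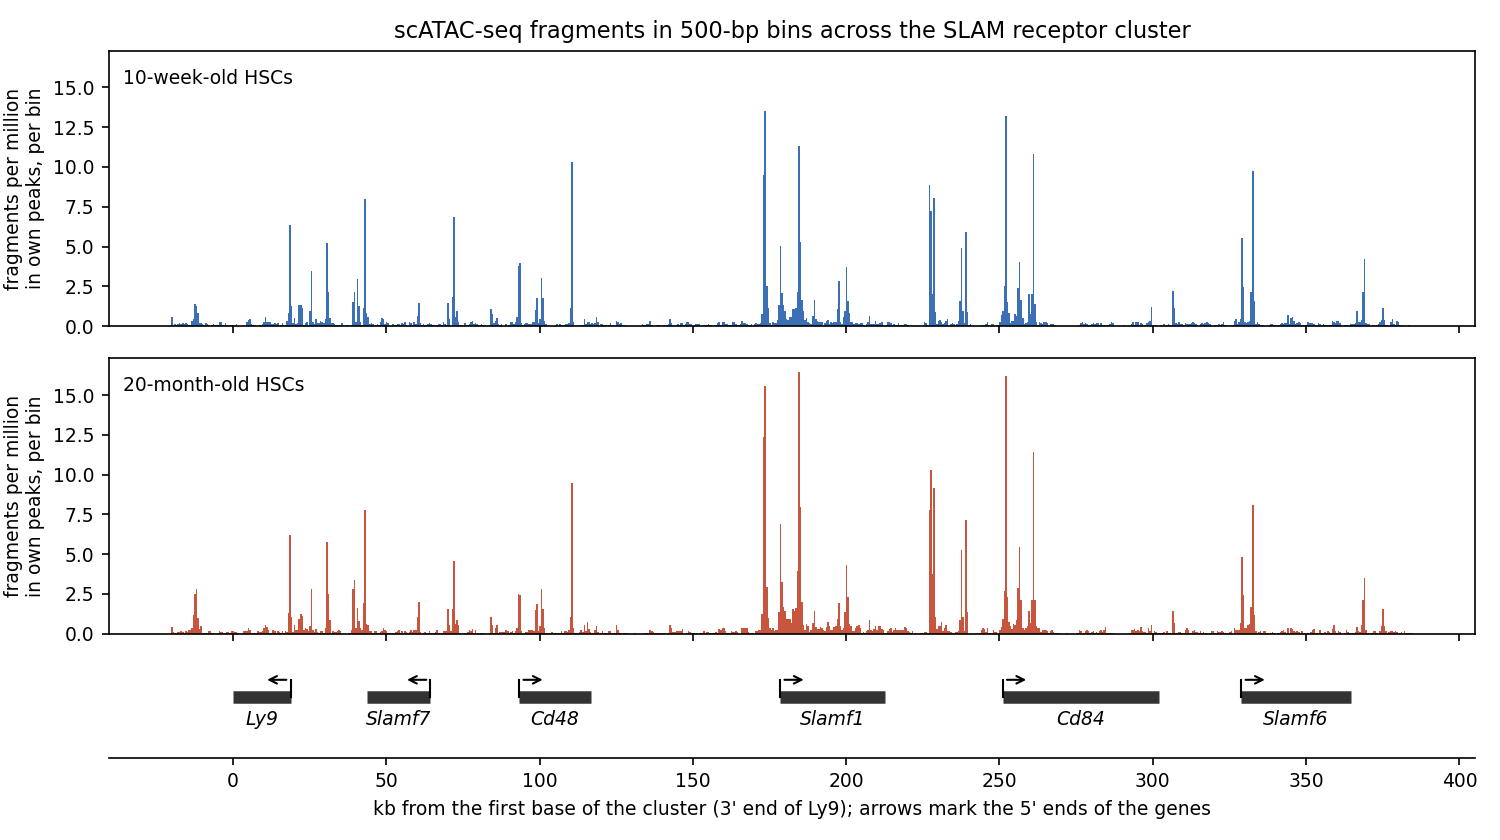
FPM in each 500-bp bin across the cluster and 20 kb on either side, in Young (blue) and Aged (red) HSCs, on the same vertical scale, with the 6 genes as black bars below. The same sites stand out at both ages, with the highest bins near and within Slamf1 and Cd84 and few fragments in Slamf7.

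At the transcription start sites (TSSs; the 5' end of the gene with 1 kb on either side), 2 of 6 members had a counting interval above 0, Slamf1 and Cd84, 1 had an interval below 0, Cd48, and 3 had intervals that included 0, Ly9, Slamf6 and Slamf7. Among all annotated genes with at least 50 fragments over both libraries, 13.6% had an interval above 0 and 19.7% an interval below 0. None of the 5 members with that minimum differed by 1.5-fold or more. Among all annotated genes with that minimum, 5.9% were at least 1.5-fold higher in Aged HSCs and 2.58% at least 1.5-fold lower. Over gene bodies 0 of 6 members passed this fold, where 5.25% of all annotated genes were higher and 1.4% were lower. The median TSS ratio of the 5 members with the minimum was -0.0055, against -0.05 over 15978 protein-coding genes with the minimum, and 90% of those genes lay between -0.28 and 0.51.

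**Figure D2:**
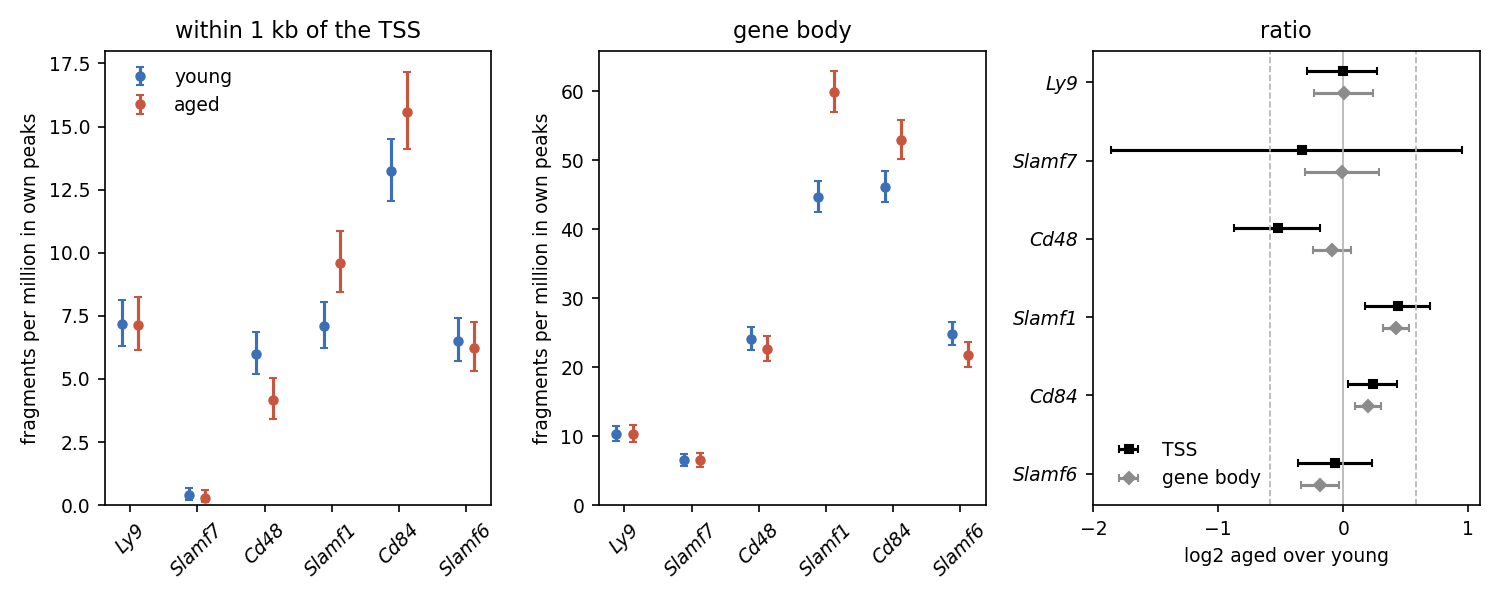
Accessibility of the 6 members in FPM within 1 kb of the TSS (left) and over the gene body (middle), and the log2 ratio of Aged over Young (right), with exact 95% counting intervals as bars and dashed lines at 1.5-fold. Slamf1 lies to the right of 0 in both measures, the Cd48 interval lies below 0 at its TSS and includes 0 over its body, and Slamf7 has a wide interval at its TSS.

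Slamf1, the self-binding receptor known as CD150, had the highest ratio of Aged over Young of the 6 members in both measures. Its TSS window held 246 Young and 251 Aged fragments although the Aged library was the smaller one, which gave 7.10 FPM (6.24 to 8.05) and 9.60 FPM (8.45 to 10.9). The Aged level lay above the Young level with no overlap of their intervals, and the log2 ratio was 0.43 (0.18 to 0.69). Over the gene body (chr1:171767127-171801184, plus strand) the levels were 44.7 and 59.95 FPM, from 1549 and 1568 fragments, with a ratio of 0.42 (0.32 to 0.53). Per kb of gene this was 1.31 FPM in Young and 1.76 FPM in Aged, the highest density of the 6 members at both ages. The gene body thus moved from the 58.8th to the 68.1st percentile of protein-coding genes. At the TSS the move was smaller, from the 40.2nd percentile in Young to the 42.2nd in Aged. The excess in Aged HSCs was not limited to peaks. Fragments of the gene body within peaks had a ratio of 0.37 (0.24 to 0.50), and those outside peaks a ratio of 0.50 (0.34 to 0.67). In-peak fragments, to which levels were scaled, made up 69.2% of Young and 67.65% of Aged fragments in cells. Fragments outside peaks thus had a ratio above 0 over the whole library, and this was not subtracted.

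The 2 highest peaks near and within Slamf1 are shown in sequence, with the bases before its start. Peaks here were called from the cut sites of these cells and numbered P1 to P56 along the interval. The highest peak of the whole interval, P24, was intergenic and centred 5001 bp upstream of the Slamf1 TSS (chr1:171761676-171762575). It held 643 Young and 587 Aged fragments, or 18.6 and 22.4 FPM, with a ratio of 0.27 (0.11 to 0.44). The next highest, P28, lay in an intron 6224 bp downstream of the TSS (chr1:171772886-171773815). It held 502 and 540 fragments, or 14.5 and 20.6 FPM, with a ratio of 0.51 (0.33 to 0.69), higher than 84.4% of peaks with that minimum. Both were thus more open in Aged HSCs by less than 1.5-fold. The central 200 bases of P24 (chr1:171762026-171762225) and P28 (chr1:171773251-171773450) and the bases just upstream of the first annotated Slamf1 start (chr1:171766882-171767126) follow on the plus strand of GRCm38. Capitals mark matches to the short consensus letters given further down, which are RUNX letters in P24, GATA and HOX letters in P28, and GATA and ETS letters upstream of Slamf1:
P24 centre: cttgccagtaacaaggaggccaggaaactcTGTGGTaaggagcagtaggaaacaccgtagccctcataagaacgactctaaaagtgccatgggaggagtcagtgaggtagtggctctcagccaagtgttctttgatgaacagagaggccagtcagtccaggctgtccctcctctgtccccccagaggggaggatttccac
P28 centre: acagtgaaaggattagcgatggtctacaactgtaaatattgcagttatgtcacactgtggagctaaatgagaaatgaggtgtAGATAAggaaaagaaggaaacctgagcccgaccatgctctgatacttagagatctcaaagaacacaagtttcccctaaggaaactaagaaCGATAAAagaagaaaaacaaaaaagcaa
Slamf1 upstream: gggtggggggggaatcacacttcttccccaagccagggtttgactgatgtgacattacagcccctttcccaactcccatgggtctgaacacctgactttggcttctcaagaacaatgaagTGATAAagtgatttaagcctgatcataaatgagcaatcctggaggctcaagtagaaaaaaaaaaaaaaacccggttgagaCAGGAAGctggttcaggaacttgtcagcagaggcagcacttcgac

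Within the Slamf1 gene the sites did not all move one way. P26, in the intron 414 bp downstream of the TSS, held 95 and 111 fragments, or 2.74 and 4.24 FPM, a ratio of 0.63 (0.22 to 1.04), and was past 1.5-fold. P25, named because it covers the TSS itself, had a ratio of 0.31 (-0.06 to 0.67). P30, an intronic peak 18954 bp downstream that was singled out after its values were seen, went the other way, with 2.71 FPM in Young, 1.80 FPM in Aged and a ratio of -0.58 (-1.13 to -0.07). Of the 17 bins of 500 bp within Slamf1 that held at least 50 fragments, 3 were at least 1.5-fold higher in Aged and 0 were lower, and their median ratio was 0.51. Across the genome 13.3% of bins with that minimum were at least 1.5-fold higher in Aged and 5% were lower, with a median of 0.07.

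Cd48, the lipid-anchored ligand of Cd244a whose protein HSCs of this gate lack, was less accessible in Aged HSCs at its TSS, while the interval over the gene body included 0. The TSS window held 208 Young and 109 Aged fragments, or 6.00 FPM (5.22 to 6.88) and 4.17 FPM (3.42 to 5.03). The intervals did not overlap, and the ratio was -0.52 (-0.87 to -0.19). Around the TSS both ages had their highest density of cut sites in the same 50-bp step, centred 75 bp upstream, at 2.31 cut sites per 1000000 in-peak fragments in Young and 1.64 in Aged. This window is shared with the start of the non-coding gene A630035G10Rik, which held the same 208 and 109 fragments, so the genes could not be told apart. Over the gene body (chr1:171682009-171705258, plus strand) the levels were 24.1 and 22.7 FPM, a ratio of -0.09 (-0.24 to 0.07).

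The peaks of Cd48 had different ratios. P19, named because it covers the TSS, held 189 and 98 fragments with a ratio of -0.53 (-0.91 to -0.18). P22, the highest peak of the gene, lay in an intron 17182 bp downstream of the TSS (chr1:171699016-171699365) and held 357 and 247 fragments, or 10.3 and 9.44 FPM, with a ratio of -0.12 (-0.37 to 0.11). The remaining peaks of the gene with at least 50 fragments, P20 in an intron and P21 in an exon, had ratios of 0.16 and 0.0092, both with intervals that included 0. The bases upstream of the RefSeq start of Cd48 (chr1:171681742-171681991) and the central 200 bases of P22 (chr1:171699091-171699290) are given to set the upstream part of P19 beside the highest site of the gene. The central 200 bases of P19 are not shown, and they held ETS and PU.1 letters but no RUNX letters. One RUNX match, in capitals, lies upstream of Cd48, and none of the letters searched lies in the centre of P22:
Cd48 upstream: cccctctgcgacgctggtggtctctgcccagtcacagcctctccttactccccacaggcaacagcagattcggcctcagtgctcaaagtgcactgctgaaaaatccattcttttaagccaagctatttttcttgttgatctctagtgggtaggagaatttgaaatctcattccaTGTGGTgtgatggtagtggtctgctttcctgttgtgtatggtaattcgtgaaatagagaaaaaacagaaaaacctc
P22 centre: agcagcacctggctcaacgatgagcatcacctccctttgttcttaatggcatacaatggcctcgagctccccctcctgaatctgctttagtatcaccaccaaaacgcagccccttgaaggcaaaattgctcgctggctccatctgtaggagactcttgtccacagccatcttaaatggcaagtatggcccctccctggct

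Cd84, a self-binding receptor also known from platelets and myeloid cells, had the highest TSS level of the 6 members and a slightly higher level in Aged HSCs. Its window held 458 and 407 fragments, or 13.2 FPM (12.04 to 14.5) in Young and 15.6 FPM (14.1 to 17.1) in Aged, with intervals that overlapped slightly and a ratio of 0.24 (0.04 to 0.43). Accessibility did not centre on the annotated 5' end of the gene. At both ages the density of cut sites was highest 875 bp downstream of it, where 3 annotated transcripts begin, at 5.51 cut sites per 1000000 in-peak fragments in Young and 6.54 in Aged. The peak there, P41 (chr1:171840376-171841015), held 468 and 433 fragments, or 13.5 and 16.6 FPM, with a ratio of 0.29 (0.10 to 0.49). Of the cut sites within 2 kb of the 5' end, 1137 in Young and 1022 in Aged, 98 and 64 lay within 500 bp of it. A window of 500 bp on either side of the gene's 5' end misses this peak and had a ratio of -0.155, so the sign of the Cd84 TSS value depended on the width of the window. With 1 kb on either side, each of the 5 annotated transcript starts gave a ratio between 0.24 and 0.30.

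Over the Cd84 gene body (chr1:171839697-171890718, plus strand) the levels were 46.2 and 53.0 FPM, or 0.905 and 1.04 FPM per kb, with a ratio of 0.20 (0.09 to 0.30). Fragments within and outside peaks had ratios of 0.18 and 0.24, and both intervals lay above 0. Outside peaks the interval was 0.05 to 0.43, and the library-wide ratio of such fragments, also above 0, was not subtracted. The other sites of Cd84 varied. The intronic P45 held 382 and 306 fragments, with a ratio of 0.09 (-0.14 to 0.31), and P34, intergenic and at -23746 bp from the 5' end, held 402 and 306, with a ratio of 0.01 (-0.21 to 0.23). Smaller peaks, singled out after their values were seen, went both ways. P35 and P36, which lie between P34 and P37, had ratios of 1.17 (0.44 to 1.96) from 25 and 43 fragments and 1.04 (0.43 to 1.69) from 37 and 58. The intronic P43 had a ratio of 0.45 (0.07 to 0.84) from 115 and 119 fragments and the intronic P46 a ratio of 1.03 (0.23 to 1.92) from 21 and 33. The intronic P44 had a ratio of -0.46 (-1.15 to 0.17) from 59 and 32 fragments, the intronic P47 a ratio of -0.996 (-2.10 to -0.11) from 36 and 13, below the minimum of 50, and P38, at -14061 bp from the 5' end, a ratio of -0.96 (-1.82 to -0.23) from 53 and 20. P35, P36 and P46 were called as peaks in Aged alone and P38 and P44 in Young alone, so the call itself favoured their direction. P37, intergenic and at -22531 bp from the 5' end, held 285 and 243 fragments with a ratio of 0.18 (-0.08 to 0.43). The 250 bases before the gene's 5' end (chr1:171839447-171839696) hold an AP-1 match and a RUNX match and are shown because this start, unlike the one downstream, carried little signal at either age:
Cd84 upstream: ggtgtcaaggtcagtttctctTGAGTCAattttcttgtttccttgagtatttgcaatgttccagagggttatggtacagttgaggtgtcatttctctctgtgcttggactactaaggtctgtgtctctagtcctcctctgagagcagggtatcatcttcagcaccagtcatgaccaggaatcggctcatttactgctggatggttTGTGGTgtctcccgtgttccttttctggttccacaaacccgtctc

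**Figure D3:**
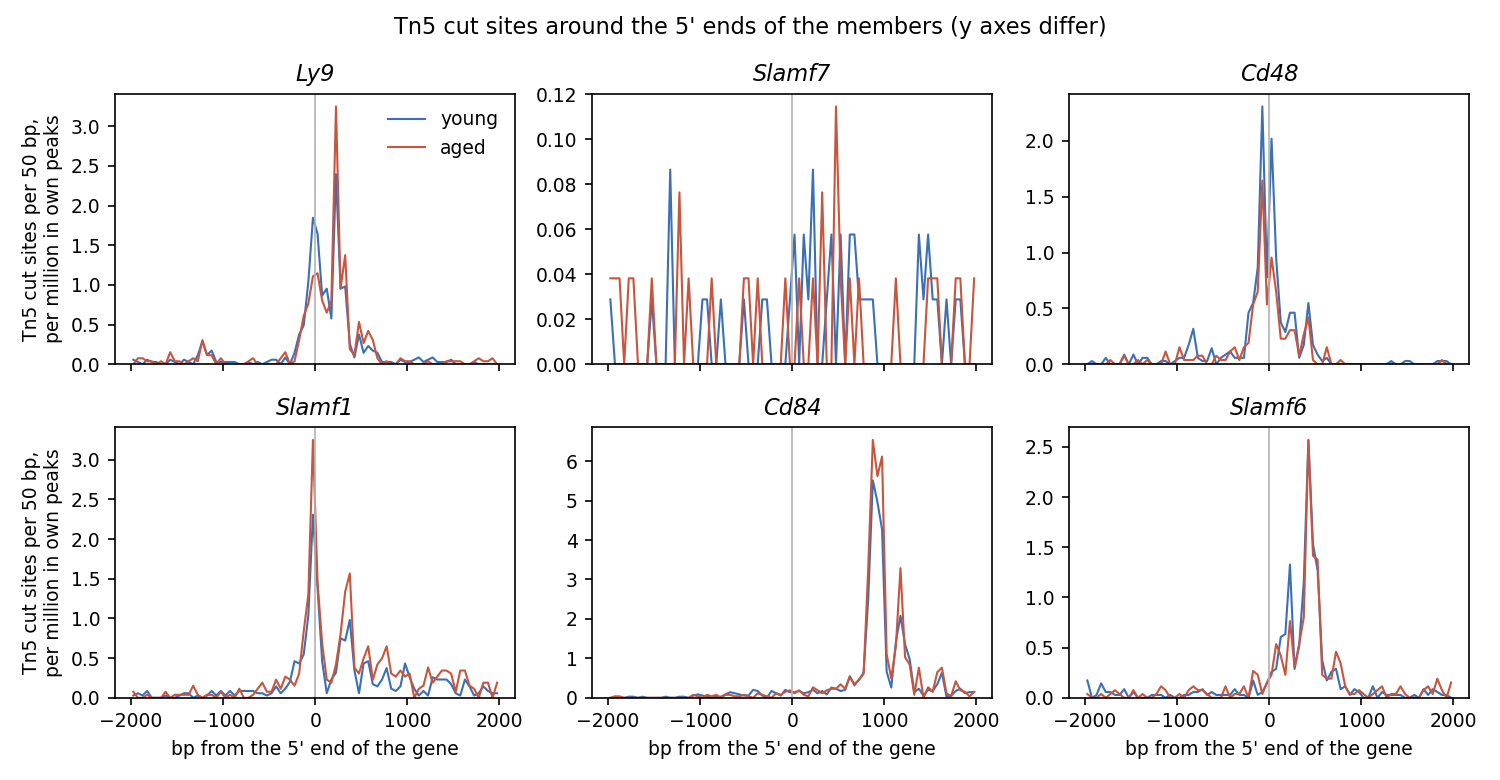
Tn5 cut sites in 50-bp steps within 2 kb of the 5' end of each member, per 1000000 in-peak fragments, in Young (blue) and Aged (red) HSCs, with positive distances in the direction of transcription and vertical scales that differ between genes. The summits lie at 75 bp upstream for Cd48, 25 bp upstream for Slamf1, 225 bp downstream for Ly9, 425 bp downstream for Slamf6 and 875 bp downstream for Cd84 at both ages, and Slamf7 has no summit above 3 cut sites.

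Ly9, a self-binding receptor of lymphocytes, showed no difference larger than the counting error over its TSS window or gene body as a whole. The TSS window held 249 and 187 fragments, which gave 7.19 FPM (6.32 to 8.14) in Young and 7.15 FPM (6.16 to 8.25) in Aged, with a ratio of -0.0055 (-0.29 to 0.27). The gene body (chr1:171588624-171607410, minus strand) had 10.3 FPM at both ages and a ratio of 0.0040 (-0.23 to 0.23). Its highest peak, P5, overlaps the TSS and also an exon of the neighbouring receptor gene Cd244a, and held 235 and 180 fragments with a ratio of 0.02. Both intervals ended below the ratios of 0.43 and 0.42 measured at Slamf1. The intervals of Ly9 and Slamf1 overlapped at the TSS and did not overlap over the gene body. In fragments shorter than 150 bp alone the Ly9 ratios were 0.21 at the TSS and 0.25 over the gene body.

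Slamf6, a self-binding receptor of lymphocytes that takes part in SAP signalling, had a lower level in Aged HSCs over its gene body, while the interval at its TSS included 0. The TSS window held 226 and 163 fragments, or 6.52 FPM (5.70 to 7.43) and 6.23 FPM (5.31 to 7.27), with a ratio of -0.06 (-0.37 to 0.23). Over the gene body (chr1:171917515-171953170, plus strand) the Young level was 24.8 FPM and the Aged level 21.8 FPM, a ratio of -0.18 (-0.34 to -0.03). The lower Aged level lay mainly in P50, the highest peak of the gene, in an intron 3696 bp downstream of the TSS (chr1:171920826-171921595). It held 364 and 221 fragments, or 10.5 and 8.45 FPM, with a ratio of -0.31 (-0.56 to -0.07). Gene body fragments within peaks had a ratio of -0.25 (-0.44 to -0.06), and those outside peaks had a ratio of -0.04 (-0.32 to 0.23). The library-wide ratio of fragments outside peaks was again not subtracted. The antisense gene Gm37065 overlaps the start of Slamf6, and ATAC-seq fragments carry no strand. The TSS window of Gm37065 held 34 and 44 fragments, with a ratio of 0.77 (0.10 to 1.47). The start of the transcript Slamf6-203 also went this way, with 31 and 43 fragments and a ratio of 0.87 (0.18 to 1.59). Both were thus past 1.5-fold higher in Aged, and the intervals of all other annotated Slamf6 starts included 0. The windows of Gm37065 and Slamf6-203 may hold many of the same fragments, so they cannot be counted as separate gains.

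Slamf7, a self-binding receptor known from NK and plasma cells, was the least accessible member. The window at its 5' end held 14 Young and 8 Aged fragments, or 0.404 and 0.306 FPM, below the minimum of 50 fragments, so that a difference was not detectable at this depth. The median TSS level of 1093 olfactory receptor genes, which HSCs do not use, was 0.115 FPM in both libraries, with 95th percentiles of 0.520 and 0.551, so the Slamf7 levels lay within this background range. Most Slamf7 transcripts are annotated to start further downstream. At those starts 67 and 68 fragments gave 1.93 FPM and 2.60 FPM, with a ratio of 0.43 (-0.08 to 0.94), and the peak there, P15, held 55 and 53 fragments with a ratio of 0.35 (-0.22 to 0.92). The gene body (chr1:171632403-171653035, minus strand) had 6.58 and 6.54 FPM and a ratio of -0.0072 (-0.30 to 0.28).

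Beyond the genes, 56 peaks were centred in the cluster or within 20 kb of it, of which 25 were centred between genes, 23 in introns and 8 in exons. They were called in both libraries in 38 cases, in Young alone in 9 and in Aged alone in 9. Of the 45 with at least 50 fragments, 8 were at least 1.5-fold higher in Aged HSCs and 4 were at least 1.5-fold lower. Of these, P13, P35, P36 and P46 were called in Aged alone and P6 and P38 in Young alone, so the call itself favoured their direction. Among all 128440 peaks with that minimum 13.2% were higher and 6.47% lower. The median ratio was 0.09 in the interval and 0.01 over all such peaks. In 500-bp bins, 88 of 810 reached the minimum, and 14 of these, 15.9%, were higher and 7, 7.95%, were lower, near the genome-wide shares given above for the higher direction and slightly above them for the lower.

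Among the peaks past the fold, neighbours could differ in direction. P11 and P12, between Ly9 and Slamf7, are centred at -20656 and -21926 bp from the Ly9 TSS and do not touch. P11 (chr1:171627866-171628265) held 91 Young and 121 Aged fragments, or 2.63 and 4.63 FPM, with a ratio of 0.81 (0.41 to 1.23). P12 (chr1:171629156-171629515) held 97 and 41, or 2.80 and 1.57 FPM, with a ratio of -0.82 (-1.4 to -0.30). P11 was more open and P12 less open in Aged HSCs, as peaks named for being past the fold in either direction. The central 200 bases of each (chr1:171627966-171628165 and chr1:171629236-171629435) are shown side by side, each with 1 RUNX match in capitals:
P11 centre: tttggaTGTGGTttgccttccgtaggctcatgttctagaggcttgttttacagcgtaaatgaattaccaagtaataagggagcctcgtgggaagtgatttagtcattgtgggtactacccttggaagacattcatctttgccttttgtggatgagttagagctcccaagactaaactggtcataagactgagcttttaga
P12 centre: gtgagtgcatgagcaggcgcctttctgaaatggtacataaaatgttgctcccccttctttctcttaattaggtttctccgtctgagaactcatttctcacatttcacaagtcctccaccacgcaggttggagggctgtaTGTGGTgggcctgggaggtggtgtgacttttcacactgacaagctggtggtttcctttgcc

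The remaining peaks past the fold with the most fragments lay in or near neighbouring genes. P2, in an intron of Cd244a, held 50 and 73 fragments, or 1.44 and 2.79 FPM, with a ratio of 0.94 (0.41 to 1.501). P48, between Cd84 and Slamf6 and 208 bp from the start of the predicted gene Gm10521, held 84 and 41 fragments, or 2.42 and 1.57 FPM, with a ratio of -0.61 (-1.20 to -0.07). A further peak, P17, 7556 bp upstream of the Slamf7 5' end, stayed just short of the fold with 239 and 124 fragments and a ratio of -0.54 (-0.87 to -0.22), and was singled out after its values were seen. P2 was more open in Aged HSCs, and P48 and P17 were less open.

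**Figure D4:**
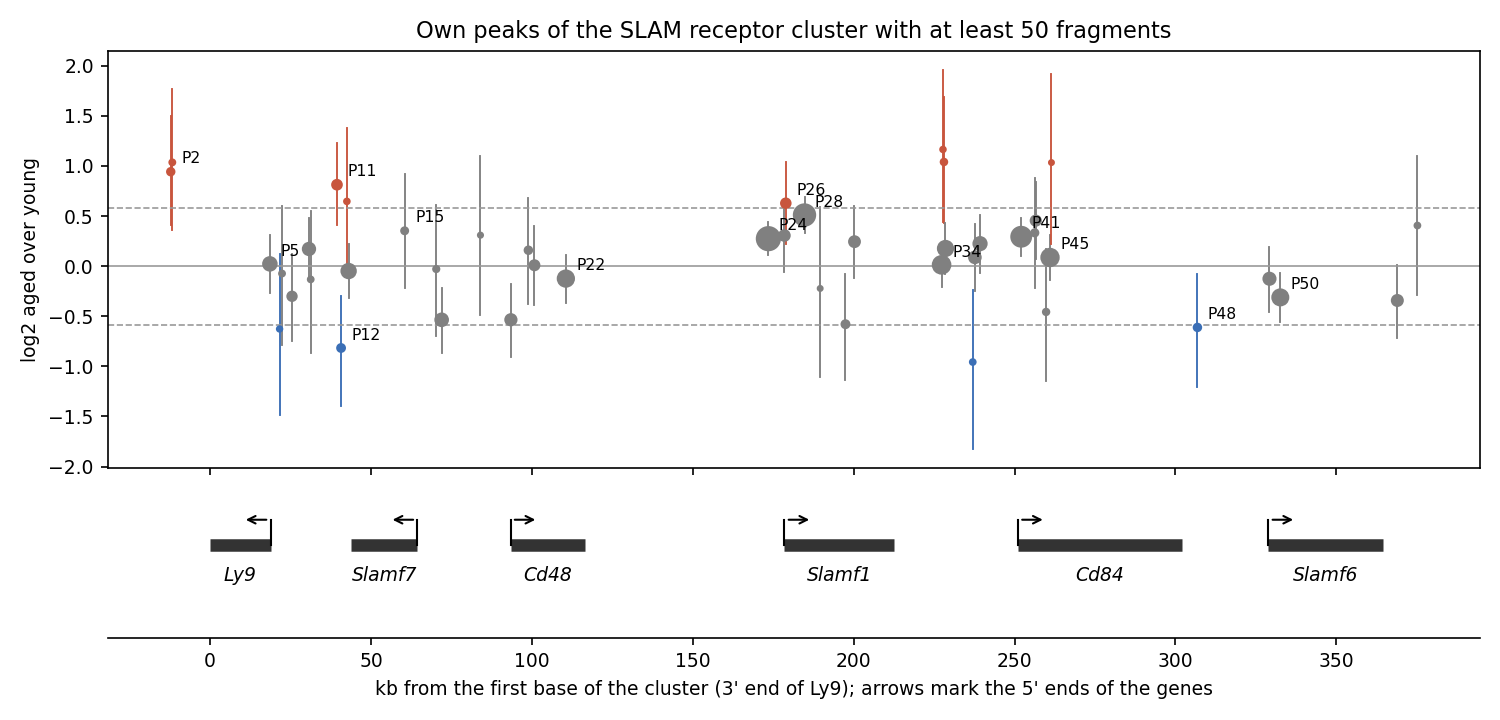
Log2 ratio of Aged over Young in the 45 peaks with at least 50 fragments, by position in the cluster, with exact 95% counting intervals; point area grows with the number of fragments, red and blue mark peaks at least 1.5-fold higher and lower in Aged, dashed lines mark 1.5-fold, and named peaks carry their number. The peaks with the most fragments stay within 1.5-fold, and those past it hold few fragments and lie on both sides of 0.

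The short consensus letters were searched on both strands of the central 200 bases of the 45 peaks and of all 165669 peaks. The 45 peaks had at least 50 fragments, whereas all 165669 were taken without a minimum, so the sets differ in this respect. RUNX letters (TGTGGT or TGCGGT) occurred in 15 of 45 centres, 33.3%, against 24.7% of all centres. GATA letters (AGATAA or TGATAA) occurred in 9, 20.0%, against 15.5%, and ETS letters (CCGGAAG or CAGGAAG) in 9, against 19.2%. PU.1 letters (GAGGAAG) occurred in 9 against 16.6%, and AP-1 letters (TGANTCA) in 6, 13.3%, against 9.35%. HOX letters (TTTATNG) were found in 3, 6.67%, against 7.60%. MEIS letters (TGACAG) were found in 7 of 45 against 14.4% of all centres, E-box letters (CAGCTG) in 4 against 13.3%, IRF letters (GAAANTGAA) in 3 against 2.66%, CTCF letters (AGGGGGC or AGGTGGC) in 2 against 11.9%, MYB letters (AACNGCC) in 2 against 8.71%, and CNC letters (GCTGANTCA, which contain the AP-1 letters) in 1 against 3.06%. CRE letters (TGACGTCA), STAT letters (TTCCNGGAA) and CEBP letters (TTGCNCAA) were found in 0 of 45, against 0.441%, 0.832% and 2.07%. In the 250 bases upstream of all RefSeq promoters, RUNX letters occurred in 18.6%, GATA letters in 16.6%, ETS letters in 17% and AP-1 letters in 6.75%, and 5 of the 6 members matched an entry of that GRCm38 table. These matches describe the letters in the window and not a bound factor.

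In single cells the members were seen in a small share of cells, as each site yields at most a few fragments per nucleus. Each cell was thinned at random to 4000 unique fragments, which left out 51 Young and 54 Aged cells, and 4836 and 3351 remained. A Slamf1 TSS fragment was then seen in 2.13% of Young (1.74 to 2.58) and 2.75% of Aged cells (2.22 to 3.36), a difference of 0.62 percentage points with an interval from -0.06 to 1.33. Over the Slamf1 gene body the shares were 11.9% (10.97 to 12.8) and 14.5% (13.4 to 15.8), a difference of 2.66 points (1.18 to 4.18). Slamf1 was the only member whose difference had an interval that excluded 0 at this depth, and only over its gene body. Without thinning, the Slamf1 gene body was seen in 25.7% of Young and 34.6% of Aged cells.

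The differences of the other members had intervals that included 0 at this depth. A Cd84 TSS fragment was seen in 3.62% and 3.70% of thinned cells, and a Cd84 gene body fragment in 11.9% and 13.2%, a difference of 1.25 points (-0.20 to 2.73). For Cd48 the TSS shares were 1.53% and 1.19% (difference -0.34, from -0.84 to 0.19), and the gene body shares were 6.29% and 6.30%. For Slamf6 the TSS shares were 1.86% and 1.43% (difference -0.43, from -0.98 to 0.15) and the gene body shares were 6.33% and 5.40% (difference -0.93, from -1.94 to 0.12). The Ly9 TSS shares were 1.82% and 1.94%. Cd48 and Slamf1 TSS differences were larger in cells thinned to 6000 fragments, at -0.75 points (-1.39 to -0.07) and 1.04 points (0.21 to 1.93), and those of Slamf6 were -0.61 at the TSS and -1.24 over the gene body. The Cd48 gene body difference was 0.01 points (-1.05 to 1.10) at 4000 fragments and -1.19 points (-2.51 to 0.17) at 6000. The median share over the TSSs of olfactory receptor genes, a background for closed genes, was 0.0207% in Young and 0.0298% in Aged thinned cells, and the share of Slamf7, 0.103% and 0.0298%, lay within its 95th percentiles of 0.145% and 0.149%. At least 1 fragment anywhere in the cluster was seen in 53.7% (52.3 to 55.1) of Young and 56.2% (54.5 to 57.9) of Aged thinned cells.

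**Figure D5:**
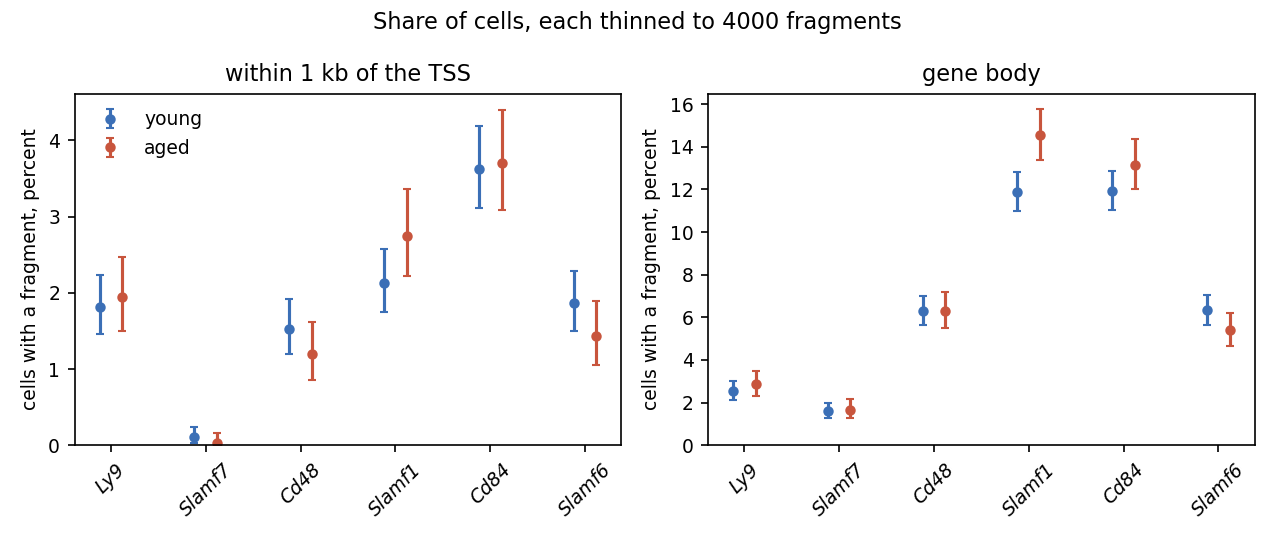
Share of cells, in percent, with at least 1 fragment within 1 kb of the TSS (left) or over the gene body (right) of each member after thinning every cell to 4000 fragments, with exact 95% binomial intervals. Intervals of Young (blue) and Aged (red) overlap for each member except at the Slamf1 gene body.

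The wider SLAM pathway was described with a list of 12 genes. Of these, 10 reached 50 fragments at their TSS and 0 differed by 1.5-fold or more in either direction, with a median ratio of -0.08 over these 10 (-0.17 over all 12), beside the 5.9% higher and 2.58% lower among all annotated genes and the median of -0.05 over protein-coding genes given above. Among the other receptors of the family, Cd244a, the receptor for Cd48, had 4.82 FPM in Young and 3.40 in Aged, a ratio of -0.49 (-0.89 to -0.12). Slamf8 had 7.48 and 9.90 FPM, a ratio of 0.41 (0.15 to 0.66), and Slamf9 had 6.44 and 5.43 FPM, a ratio of -0.24 (-0.56 to 0.06). The ligand Cd48 and its receptor Cd244a were thus both lower at their TSSs in Aged HSCs, each by less than 1.5-fold. Among all annotated genes with the minimum, 19.7% had a TSS interval below 0. The 2 intronic peaks of Cd244a with the minimum, P2 and P3, were higher in Aged. Their ratios were 0.94 and 1.04 (0.36 to 1.765 for P3), both past 1.5-fold. The kinases Fyn and Lyn, which act downstream of SLAM receptors, had 31.8 and 28.9 FPM in Young, with ratios of -0.09 and -0.02, and their intervals included 0. The adaptor genes Sh2d1a and Sh2d1b2 held 14 and 12 fragments in Young and 3 and 7 in Aged and were below the minimum.

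The other genes of the sort gate were set beside Slamf1 and Cd48. Kit and Ly6a, which encode c-kit and Sca-1, had TSS ratios of -0.10 and -0.08, near the median of -0.05 over protein-coding genes, with intervals that included 0. Flt3, whose protein the gate excludes, had 33.8 FPM in Young and 25.5 in Aged, a ratio of -0.41 (-0.55 to -0.27), and Cd34 and Il7r had ratios of -0.20 (-0.40 to -0.01) and -0.56 (-1.16 to -0.0098).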

How the data were processed

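Single-cell ATAC-seq fragments were analysed in 1 Young and 1 Aged library, grouped by the age in the sample labels. The authors prepared libraries with a 10x Genomics droplet kit and, per the submitters' notes, processed reads with Cell Ranger ATAC against mm10. The deposited files hold counts made by the authors, with no normalization: unique fragments with the number of read pairs behind each, and counts of read pairs and fragments per barcode with the cell call. Over all barcodes there were 53786133 Young and 48333115 Aged unique fragments, and duplicates made up 14.9% and 12.6% of read pairs.

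Barcodes called as cells with 3000 to 20000 in-peak fragments were kept, of 5028 called Young and 3694 called Aged barcodes. Doublets were not called, and leaving out the deepest 5% of cells was an alternative. Peaks were called anew from cut sites in each library (Poisson, q under 0.001) and merged. Each fragment with 1 or both ends inside a region added 1 to its count. Levels were scaled to fragments in these peaks, and ratios are log2 of Aged over Young with a pseudocount of 1 fragment. Intervals are at 95% and exact (Clopper-Pearson or Poisson), except for differences of shares, where they are Newcombe intervals. They cover counting error only. Genes and transcripts were those of GENCODE M21 on GRCm38, the same build as mm10, and sequences were read from RefSeq's GRCm38 genome. Python 3.11.15, numpy 2.4.6, scipy 1.17.1 and numba 0.67.0 were used, and the counting, thinning and peak calls were tested on simulated data.

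The members and lists were chosen with earlier results of these data known. Named were all 6 members, the other SLAM receptors, the highest peak of each member, the 5 peaks with the most fragments and the 5 past 1.5-fold with the most fragments. Peaks over a TSS and the remaining Cd48 peaks were added. A few peaks, starts and 50-bp steps singled out after their values were seen were also added. With 1 library per age no test was made.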

Additional observations from a re-analysis of the deposited data

Results flagged for a closer look

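Fragments at member TSSs also appeared in barcodes that were not called as cells, data that no comparison above used. The Slamf1 window held 10 such Young and 19 such Aged fragments, and the Cd48 window held 5 and 6, each above the 3 counts that a count of 0 allows. In FPM of their own in-peak fragments these were 6.43 and 12.2 for Slamf1 and 3.21 and 3.87 for Cd48. Such barcodes held 5.54% of Young and 10.8% of Aged unique fragments, and their part in the results was not tested.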

How the results depend on the processing

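The TSS and gene body ratios of the members, the ratio of the cluster, the counts of members and bins and the TSS shares were recomputed with other settings (cells, depth, scaling, fragment length, pseudocount, windows, bins). The Slamf1 TSS ratio lay between 0.36 and 0.61 under 14 of 14 settings and its gene body ratio between 0.35 and 0.44 in 12 of 12, and the Cd48 TSS ratio lay between -0.64 and -0.31. The Ly9 gene body ratio, 0.0040 in the report, was 0.25 with short fragments only. The ratio of the whole cluster lay between 0.08 and 0.13. The Cd84 TSS ratio turned to -0.155 with 500 bp on either side of the 5' end and was 0.07 in thinned cells. The count of members past the fold at the TSS, 0 in the report, was 1 with all called cells (Cd48), 1 with short fragments only (Cd48), 1 with flanking density subtracted (Slamf1) and 2 at 1.3-fold (both). Bins higher in Aged numbered 6 in thinned cells, 4 with short fragments only, 8 with 1-kb bins and 37 with a minimum of 20 fragments. Bins lower in Aged numbered 1 in thinned cells, 6 with short fragments only, 6 with 1-kb bins, 11 with all called cells and 20 with a minimum of 20 fragments. Scaling to all nuclear fragments gave 12 higher and 10 lower bins. The report has 14 higher and 7 lower bins, whereas with short fragments only the lower bins outnumbered the higher ones. For these other settings no share over all genes or all bins is given, nor the number of bins that reached the minimum. The counts of members and bins there thus cannot be set beside the genome. Thinning and short fragments lower the fragments per bin, and a lower minimum admits more bins, by construction; other causes were not tested. Peaks, the pathway, the gate genes, markers, flanks, motifs and pairs were not recomputed. Without thinning, the difference in the share of cells at the TSS was -0.947 points for Cd48, 2.20 for Slamf1 and 2.37 for Cd84. Scaling to all nuclear fragments moved every ratio by -0.03 and the median of ratios by -0.0098. At the Slamf7 5' end, with fewer than 50 fragments, the interval spans more than a 1.5-fold change either way. No paired analysis was possible because there was 1 library per age.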

Other observations

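Fragments of different members were seen together in the same cells about as often as their separate shares predict. Over the 15 pairs of gene bodies in thinned cells, the ratio of cells with both to the number expected from the product of the shares ran from 0.642 to 1.301 in Young and from 0.386 to 2.49 in Aged. The pair of Slamf1 and Cd84 in Young was the only one whose counting interval excluded 1, with 88 cells against 68.4 expected (ratio 1.29, 1.03 to 1.59), and in Aged it was 60 against 64.1 (0.936, 0.714 to 1.205). With 15 pairs in each library, 1 such interval is a description and no finding.

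After thinning, the number of cluster fragments per cell was nearly that of independent draws. In thinned cells the mean was 0.799 in Young and 0.838 in Aged, the highest count in a cell was 6 at both ages, and the variance was 1.07 and 1.06 times the mean. Random thinning to a fixed depth itself brings the variance toward the mean, so these values were partly set by the procedure. Fragments in exactly 2 of the 6 gene bodies were seen in 5.56% of the 4836 Young and 5.10% of the 3351 Aged cells. Fragments in 3 or more were seen in 0.310% of Young and 0.746% of Aged cells, which are few cells. These shares went opposite ways, and no interval was computed for them.

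The Slamf1 TSS had the lowest share of short fragments among the 5 members with at least 50 fragments, at both ages. Fragments shorter than 150 bp made up 51.2% of those in the Young (44.8 to 57.6) and 45.8% in the Aged window (39.5 to 52.2). At the Cd84 TSS they made up 59.2% and 59.95%, close to the library value in Young and above it in Aged. The difference between the genes was not tested.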
